A study of Mus musculus with 6 samples.

Results

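Skeletal muscle is recognised in RNA by a set of genes for the contractile unit, the sarcomere, for the calcium signal that starts contraction and for the supply of energy to it. The 35 such genes described here were chosen by symbol, from a list of skeletal muscle genes, and were found through their Ensembl identifiers among the 52636 gene rows of each library. They were measured in parotid salivary gland, the gland in front of the ear, whose own cells secrete saliva and do not form sarcomeres. All glands came from mice of the inbred strain FVB at an age of 28 days. Irradiated glands (3 samples) were collected after a single dose of 5 Gy of radiation, and untreated glands (3 samples) served as their control. The dose text stands on the labels of both groups and is read here for the samples labelled as irradiated only. The labels give neither the time between radiation and collection nor whether the samples are separate animals, so a p-value here reflects only how much these samples vary, and that may be technical. They also say nothing of muscle tissue taken with the gland.

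In the sarcomere, thick filaments of myosin pull on thin filaments of actin, which are anchored at the Z-disc, while the giant protein titin spans from the Z-disc to the middle. Calcium released from the sarcoplasmic reticulum binds troponin on the thin filament, which lets myosin attach, and a calcium pump then returns it to the store. Fast and slow fibres use different isoforms of myosin, troponin and the pump, and creatine kinase, glycogen phosphorylase, enolase and myoglobin serve the fibre's need for ATP and oxygen.

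The depth and quality of the libraries differed. Counts in genes were 14454646, 7108359 and 12127162 in irradiated replicates 1, 2 and 3 and 12787135, 12722189 and 15036193 in untreated replicates 1, 2 and 3. Irradiated replicate 2 stood apart, where 10.01% of reads failed to align (3.75% to 4.33% elsewhere). It had 184 reads set aside for low alignment quality, against 342749 to 491591 in the other libraries. It also held 377 counts of Smgc, a gene of the sublingual and submandibular glands, where no other library had more than 1. Its summed muscle genes lay within the untreated range, and irradiated replicate 3 is the library that departs from the rest below.

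Muscle transcripts were a small share of the RNA in every gland, and were lowest in irradiated replicate 3. The 35 genes took 0.0797%, 0.109% and 0.0285% of the gene counts in irradiated replicates 1, 2 and 3, against 0.0856%, 0.0998% and 0.114% in untreated replicates 1, 2 and 3. With 3461 to 17142 member counts per library, the exact 95% binomial intervals were narrow, 0.0276% to 0.0295% for irradiated replicate 3 and 0.0782% to 0.0812% for irradiated replicate 1. They cover counting error only. On the scale used below, counts scaled to library size and TMM factor (CPM), the members summed to 766, 933 and 298 CPM in irradiated replicates 1, 2 and 3 and to 899, 1108 and 1141 CPM in untreated replicates 1, 2 and 3. Irradiated replicate 2 lay above untreated replicate 1, so the groups overlapped. The mean was 666 ± 329 CPM in the irradiated group and 1049 ± 132 CPM in the untreated group (SD, n = 3 each), a ratio of 0.634. Without irradiated replicate 3 the irradiated mean was 849 ± 119 CPM (SD, n = 2) and the ratio 0.809. In bulk tissue, fewer muscle fibres and less RNA per fibre cannot be told apart.

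**Figure D1:**
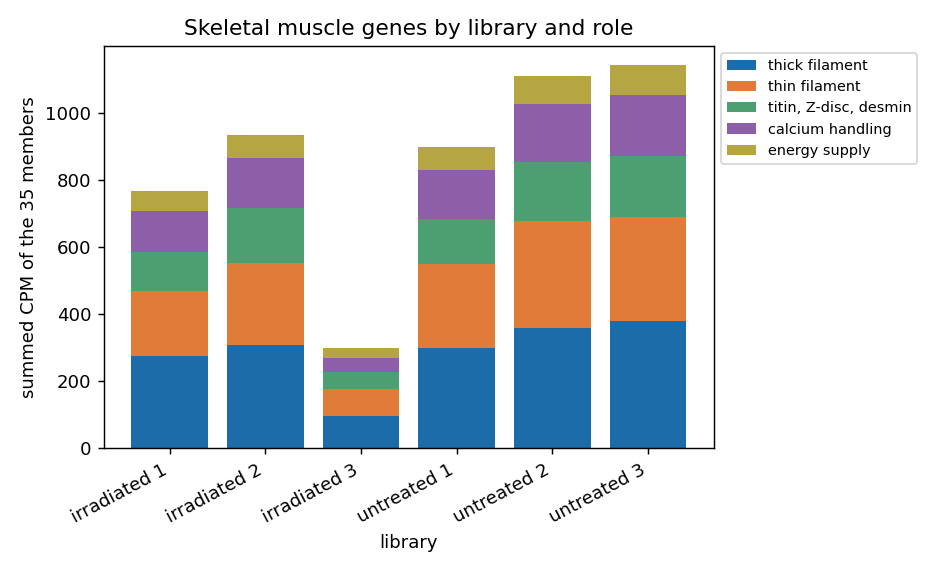
Summed CPM of the 35 muscle genes in each library (y axis), with the irradiated libraries left and the untreated ones right and colours stacking the 5 roles. Irradiated replicate 3, at 298 CPM, is the shortest bar, and all 5 roles are at their lowest there.

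The 28 members with enough counts to test were low together in that library, whatever their role. Irradiated replicate 3 was the lowest of the 6 libraries for 27 of the 28, or 96.4%, while it was the lowest for 16.7% of all 12885 genes tested. The exception was Myh2, lowest in irradiated replicate 1. The ratio of irradiated replicate 3 to the mean of irradiated replicates 1 and 2 had a median of 0.341 over the members, from 0.162 for Casq1 to 0.811 for Myh2, and a median of 0.997 over all genes tested. The other libraries also kept an order. Irradiated replicate 2 was above irradiated replicate 1 for 27 of 28 members, against 49.3% of all genes, and untreated replicate 1 was the lowest untreated library for 25 of 28, against 34.3% of all genes. The coefficient of variation of the members had a median of 50.8% in the irradiated group and 15.9% in the untreated group, while over all genes it was 14.0% in the irradiated group and 14.1% in the untreated group.

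**Figure D2:**
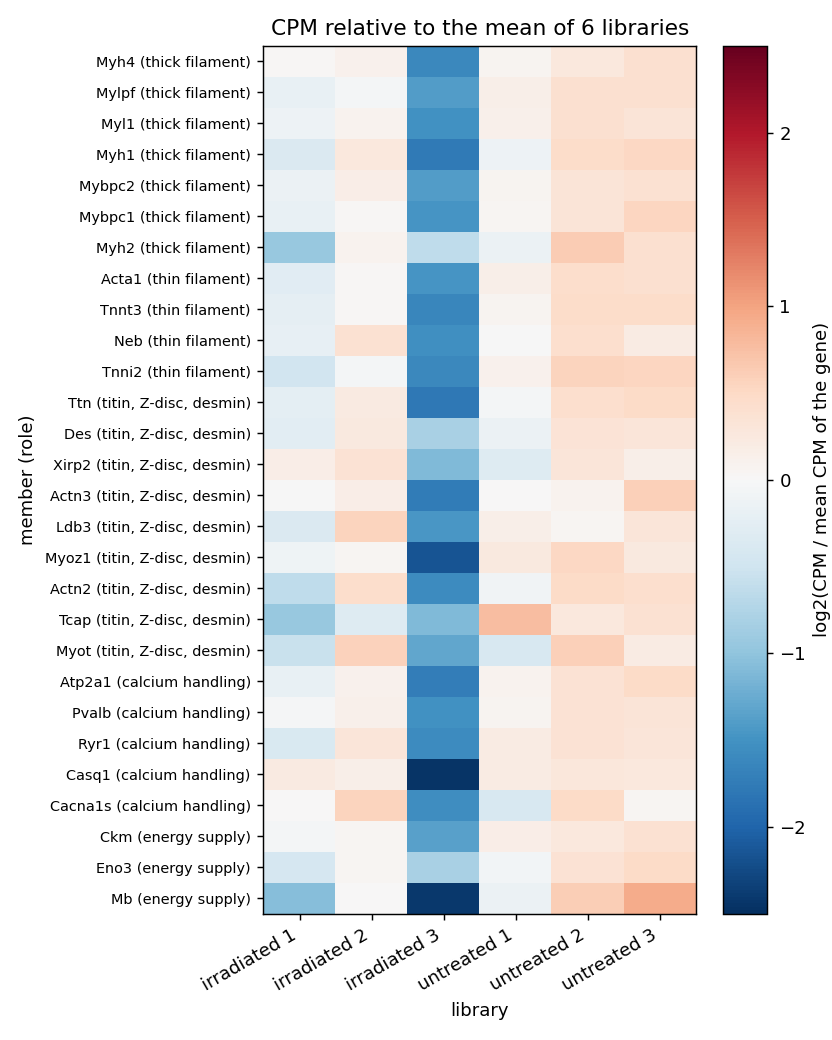
Level of each of the 28 tested members in each library, as log2 of its CPM over the gene's mean CPM of 6 libraries (colour), with genes grouped by role on the y axis. The column of irradiated replicate 3 is blue for every member, and untreated replicates 2 and 3 hold the highest value of 12 members each.

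Between the groups, all 28 fitted log2 fold changes of irradiated over untreated glands were negative, where 50.9% of all genes were, with a median of -0.67 over the members and -0.01 over all genes. They ran from -1.44 for Mb to -0.14 for Xirp2. The members varied together from library to library, so counts of members here are not counts of independent observations. One member of the 28, Tcap, passed edgeR's quasi-likelihood test at an adjusted p of 0.05, which is 3.57%, where 0.349% of all genes were called lower, 0.652% higher and 1.00% in either direction. The 129 calls over all genes were 84 higher and 45 lower, and with library totals alone in place of TMM they were 259 higher and 22 lower. At an unadjusted p under 0.05 there were 4 members, or 14.3%, all lower (Myh2, Tcap, Eno3 and Mb), against 7.46% of all genes lower and 15.0% in either direction. For 9 members, or 32.1%, every irradiated library lay below every untreated one (Myl1, Mylpf, Mybpc1, Acta1, Tnni2, Tnnt3, Tcap, Myoz1 and Ckm), as did 10.6% of all genes, and another 10.6% the other way round. The count was 9 again without irradiated replicate 3 (16.7% of all genes) and 25 without irradiated replicate 2 (16.0% of all genes). The standard errors of the 28 members had a median of 0.44 on the log2 scale, against 0.16 for all genes of mean CPM between 5 and 50. Some members lie outside that range, from Myh2 at 2.82 CPM to Myh4 at 169 CPM, so the sets are not matched in level. Without irradiated replicate 3, edgeR called 0 of the 28 members, 11 had an unadjusted p under 0.05 (39.3%, all lower, against 7.56% of all genes lower and 14.7% in either direction), and the median log2 fold change was -0.32 with 26 of 28 negative. Without irradiated replicate 2, 11 members again had an unadjusted p under 0.05 (39.3%, all lower, against 6.48% of all genes lower and 13.4% in either direction).

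**Figure D3:**
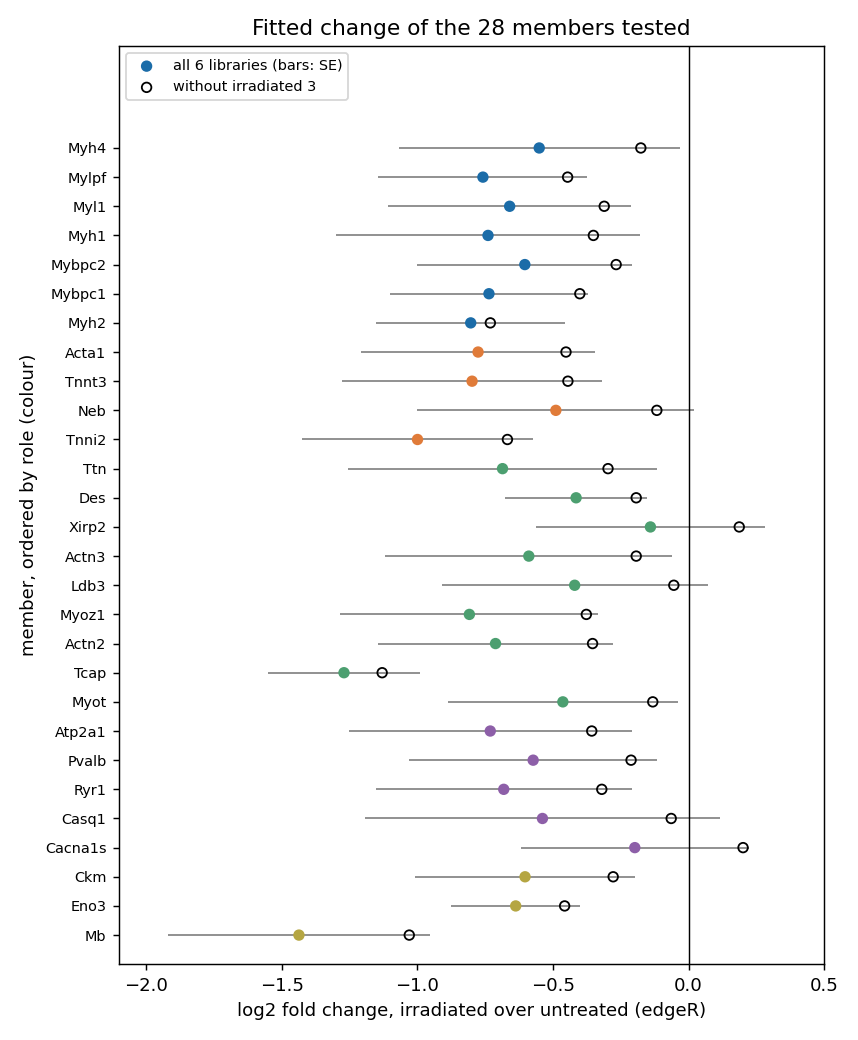
Fitted log2 fold change of irradiated over untreated glands (x axis, bars are 1 SE) for the 28 tested members ordered by role (y axis, colour by role), with open circles for the fit without irradiated replicate 3. All filled points lie left of 0, between -1.44 and -0.14, while the open circles of Xirp2 and Cacna1s lie right of it.

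Tcap, or telethonin, caps the titin molecules at the Z-disc. It had 32, 27 and 22 counts in irradiated replicates 1, 2 and 3 and 85, 56 and 80 counts in untreated replicates 1, 2 and 3. As levels these were 2.13, 3.24 and 1.90 CPM in the irradiated libraries and 6.98, 4.89 and 5.33 CPM in the untreated ones, so all 3 irradiated libraries lay below all 3 untreated ones. Tcap fell to 2.42 ± 0.72 CPM in irradiated glands, against 5.73 ± 1.10 CPM in untreated glands (SD, n = 3 each). On the log2 scale this was -1.27 with an SE of 0.28 (edgeR, adjusted p = 0.0326). Its level in irradiated replicate 1 was close to that in irradiated replicate 3, although the member sums of these libraries were far apart. The call was lost in several settings, where edgeR's adjusted p was 0.158 without irradiated replicate 1, 0.0869 without irradiated replicate 3, 0.108 without untreated replicate 1 and 0.0628 without untreated replicate 3. Over all settings it ranged from 0.00131, with no filter on low counts, to 0.158, and DESeq2 gave 0.0155.

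The thick filament genes were dominated by the fast isoforms. Myh4, the myosin heavy chain of the fastest fibres, type IIB, had the most counts of all members. It stood at 174, 183 and 55.1 CPM in irradiated replicates 1, 2 and 3 and at 176, 203 and 224 CPM in untreated replicates 1, 2 and 3, with irradiated replicates 1 and 2 at about the level of untreated replicate 1. The log2 fold change was -0.55 (SE 0.52, edgeR adjusted p = 0.705). Myh1, the type IIX chain, had 18.9, 29.3 and 7.15 CPM in the irradiated libraries and 22.3, 33.7 and 35.02 CPM in the untreated ones, and these overlapped. Myh2, the type IIA chain, had 1.46, 3.00 and 1.81 CPM in the irradiated libraries and 2.55, 4.36 and 3.73 CPM in the untreated ones. Its lowest library was irradiated replicate 1, and its log2 fold change was -0.80 (SE 0.35, edgeR adjusted p = 0.278). The promoter windows of Myh4, of the skeletal actin gene Acta1 and of titin are shown because these genes have the highest CPM of their roles, not scaled by length, and hold the MEF2 or CArG motifs that muscle regulators bind.

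Myh4: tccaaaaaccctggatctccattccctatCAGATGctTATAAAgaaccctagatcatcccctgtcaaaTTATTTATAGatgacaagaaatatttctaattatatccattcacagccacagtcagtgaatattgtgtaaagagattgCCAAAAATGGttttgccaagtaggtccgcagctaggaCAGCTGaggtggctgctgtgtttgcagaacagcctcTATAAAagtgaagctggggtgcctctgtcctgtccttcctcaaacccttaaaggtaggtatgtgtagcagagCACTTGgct
Acta1: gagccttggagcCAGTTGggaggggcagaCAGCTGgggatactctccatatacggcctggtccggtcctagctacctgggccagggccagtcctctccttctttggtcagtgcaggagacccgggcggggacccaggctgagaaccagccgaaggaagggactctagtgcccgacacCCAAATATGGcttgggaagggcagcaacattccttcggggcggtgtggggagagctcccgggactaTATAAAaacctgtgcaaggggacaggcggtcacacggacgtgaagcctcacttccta
Ttn: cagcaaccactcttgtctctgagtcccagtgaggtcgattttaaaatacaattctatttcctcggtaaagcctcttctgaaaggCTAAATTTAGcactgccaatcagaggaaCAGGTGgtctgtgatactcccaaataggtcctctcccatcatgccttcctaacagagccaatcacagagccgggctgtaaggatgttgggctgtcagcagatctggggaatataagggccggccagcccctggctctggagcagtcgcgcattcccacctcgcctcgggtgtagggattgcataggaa

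These are RefSeq sequences of build GRCm38.p6, read 5′ to 3′ on the gene's strand, from 250 bases before to 50 after the start. Myh4 lies at chr11:67237562-67237861 on the plus strand, Acta1 at chr8:123894726-123895025 on the minus strand and Ttn at chr2:76982498-76982797 on the minus strand. Capitals mark every match, on either strand, to MEF2, the CArG box, the E-box CANNTG and the TATA box TATAAA. In Myh4 the MEF2 match begins 182 bases and the CArG match 104 bases before the start, and 1 of its 3 TATAAA matches overlaps the MEF2 match. In Acta1 the CArG match begins 73 bases before the start, and in Ttn the MEF2 match begins 166 bases before it. The RefSeq table held 28 of the 35 members. Of these, 5 held MEF2 (17.9%, against 3.70% of all 27025 genes), 3 the CArG box (10.7%, against 1.81%), 24 the E-box (85.7%, against 75.0%) and 7 TATAAA (25.0%, against 15.7%). The windows of Atp2a1 and Ckm, which have the highest CPM of the calcium and energy roles, held an E-box and neither MEF2 nor CArG. A match is a description of the letters, not a site shown to be bound.

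The light chains and binding proteins of the thick filament that could be tested were lowest in irradiated replicate 3 as well. Mylpf, the fast regulatory light chain, had 30.9, 34.2 and 13.4 CPM in irradiated replicates 1, 2 and 3 and 39.2, 46.6 and 46.7 CPM in untreated replicates 1, 2 and 3. Myl1, the fast essential light chain, had 27.6, 31.8 and 10.5 CPM in the irradiated libraries and 32.9, 39.7 and 37.4 CPM in the untreated ones. For both, every irradiated library lay below every untreated one, but neither passed edgeR's test (adjusted p = 0.473 for Mylpf and 0.596 for Myl1). Mybpc1, the slow form of myosin-binding protein C, also did not overlap between the groups, with 9.11, 10.6 and 3.71 CPM in the irradiated libraries and 10.6, 12.8 and 15.1 CPM in the untreated ones. Mybpc2, the fast form, averaged 11.6 ± 5.51 CPM in irradiated glands and 17.5 ± 2.01 CPM in untreated glands.

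Fibre type composition varied little across the libraries. Scaled per kilobase of exon, Myh4 made up 90.1%, 85.8% and 86.9% of the 4 adult myosin heavy chains in irradiated replicates 1, 2 and 3 and 88.4%, 85.1% and 86.0% in untreated replicates 1, 2 and 3. The means were 87.6 ± 2.23% in the irradiated group and 86.5 ± 1.71% in the untreated group, a difference within the spread of either. Myh1 held 11.0 ± 1.87% in irradiated glands and 12.2 ± 1.46% in untreated glands, and Myh2 held 1.41 ± 0.906% in irradiated glands and 1.28 ± 0.243% in untreated glands (SD, n = 3 each). The Myh2 share was highest in irradiated replicate 3, at 2.41%, on 21 Myh2 counts. The slow chain Myh7 had 0 of 743 to 3944 myosin counts in each library, with an exact 95% upper bound of 0.495% in irradiated replicate 3 and 0.0935% in untreated replicate 3. The sequences of Myh1, Myh2 and Myh4 are very similar, and reads that align to more than 1 place were set aside by the counting, so these shares are of the uniquely placed reads only.

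Slow fibre genes were near 0 counts, apart from Mybpc1. Myl2, the slow regulatory light chain, and Tnni1, slow troponin I, had 1 count each over all 6 libraries. Tnnc1, the slow and cardiac troponin C, had 0, 1 and 2 counts in irradiated replicates 1, 2 and 3 and 0, 1 and 0 in untreated replicates 1, 2 and 3. Tnnt1, slow troponin T, had 1, 2 and 1 counts in the irradiated libraries and 5, 7 and 6 in the untreated ones. It was 0.141% to 0.483% of all Tnnt1 and Tnnt3 counts in irradiated glands and 0.523% to 0.804% in untreated glands. The counts did not overlap but were too few to be tested. The 6 slow members together were 2.22 ± 0.233% of slow and fast counts in the irradiated group and 2.25 ± 0.114% in the untreated group, nearly all from Mybpc1. This share describes Mybpc1 and is not read as a share of slow fibres, since the other slow members were near 0 counts.

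Among the thin filament genes, Acta1, skeletal muscle actin, was the highest of all members per kilobase of exon, with a level of 63.8 CPM per kb in irradiated glands and 109.2 CPM per kb in untreated glands. Its levels were 109.9, 136 and 48.0 CPM in irradiated replicates 1, 2 and 3 and 147, 181 and 176 CPM in untreated replicates 1, 2 and 3, with no overlap and a log2 fold change of -0.78 (SE 0.43, edgeR adjusted p = 0.509). Tnnt3, fast troponin T, had 46.9, 56.1 and 17.8 CPM in the irradiated libraries and 58.0, 75.4 and 76.0 CPM in the untreated ones, also without overlap. Tnni2, fast troponin I, had 14.9, 20.1 and 6.72 CPM in the irradiated libraries and 22.1, 30.2 and 29.9 CPM in the untreated ones, a log2 fold change of -0.9996 (SE 0.43, edgeR adjusted p = 0.394). Neb, or nebulin, which runs along the thin filament, overlapped, with 21.0, 31.2 and 8.36 CPM in the irradiated libraries and 24.0, 32.3 and 27.7 CPM in the untreated ones. Fast troponin C, Tnnc2, had 0 counts in all 3 irradiated libraries and 1, 1 and 2 in the untreated ones, although its partners Tnni2 and Tnnt3 were well covered. An exon of Ube2c on the other strand covers 74.0% of its exon bases, and the strand setting of the counting is not given, so its level is uncertain, and the part of that overlap in the low value was not tested. Acta1 is likewise uncertain, since its coding sequence is nearly that of the other muscle actins.

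The other genes of titin, the Z-disc and the intermediate filament were lowest in irradiated replicate 3, and their order in the other libraries varied. Ttn, or titin, had 55.6, 76.5 and 18.9 CPM in irradiated replicates 1, 2 and 3 and 63.6, 87.7 and 90.6 CPM in untreated replicates 1, 2 and 3, with irradiated replicate 2 within the untreated range. Des, or desmin, which ties neighbouring sarcomeres together, had 13.6, 19.3 and 9.31 CPM in the irradiated libraries and 14.6, 20.7 and 20.2 CPM in the untreated ones. Des was less reduced in irradiated replicate 3 than the sum, since it made up 31.2 of 1000 member reads there, against 17.7 and 20.7 in irradiated replicates 1 and 2. Xirp2, a repeat protein of muscle attachments, had 16.6, 18.9 and 6.89 CPM in the irradiated libraries and 11.7, 18.2 and 16.3 CPM in the untreated ones. It had the fold change closest to 0, at -0.14 (SE 0.42, edgeR adjusted p = 0.921), and 0.19 without irradiated replicate 3. Myoz1, a calcineurin-binding Z-disc protein of fast fibres, did not overlap between the groups, averaging 4.23 ± 2.56 CPM in irradiated glands and 7.35 ± 0.816 CPM in untreated glands. Actn2 and Actn3, the Z-disc actinins, Ldb3 and Myot overlapped, with log2 fold changes from -0.71 for Actn2 to -0.42 for Ldb3.

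In the calcium cycle, Atp2a1, the fast-fibre calcium pump SERCA1, had 75.6, 92.6 and 26.1 CPM in irradiated replicates 1, 2 and 3 and 91.7, 110.1 and 120.0 CPM in untreated replicates 1, 2 and 3. Its groups overlapped only through irradiated replicate 2 and untreated replicate 1, and the log2 fold change was -0.73 (SE 0.52, edgeR adjusted p = 0.610). Pvalb, or parvalbumin, a calcium buffer of fast fibres, had 22.1, 24.5 and 7.84 CPM in the irradiated libraries and 23.7, 28.7 and 28.1 CPM in the untreated ones. Ryr1, the release channel, had 11.0, 17.9 and 4.83 CPM in the irradiated libraries and 16.6, 18.5 and 17.8 CPM in the untreated ones. Casq1, which holds calcium in the store, was the member most reduced in irradiated replicate 3, at 1.72 CPM, against 10.9 and 10.3 CPM in irradiated replicates 1 and 2 and 10.8 to 11.3 CPM in untreated glands. Cacna1s, the voltage sensor, overlapped between the groups. Its log2 fold change was -0.20 (SE 0.42), and 0.20 without irradiated replicate 3.

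Of the energy genes, Ckm, muscle creatine kinase, had 36.6, 38.9 and 14.8 CPM in irradiated replicates 1, 2 and 3 and 42.3, 45.4 and 49.1 CPM in untreated replicates 1, 2 and 3, without overlap (log2 fold change -0.60, SE 0.40, edgeR adjusted p = 0.590). Eno3, muscle enolase, had 19.0, 26.4 and 14.6 CPM in the irradiated libraries and 24.3, 32.7 and 35.4 CPM in the untreated ones, where irradiated replicate 2 exceeded untreated replicate 1. Its SE of 0.24 was the lowest of the members, with a log2 fold change of -0.64 and an edgeR adjusted p of 0.277. Mb, or myoglobin, the oxygen store, had 1.53, 3.24 and 0.603 CPM in the irradiated libraries and 2.88, 4.89 and 6.06 CPM in the untreated ones, a log2 fold change of -1.44 (SE 0.48, edgeR adjusted p = 0.185). Exons of other genes on the opposite strand cover 31.9% of the exon bases of Mb and 21.9% of those of Atp2a1. Without irradiated replicate 2, edgeR called Eno3 and Mb lower beside Tcap. Pygm, muscle glycogen phosphorylase, had 0 counts in every library. It lies at chr19:6384399-6398459 of build mm10 within 13 consecutive protein-coding genes that had 2 counts together over the 6 libraries, among them the splicing factor gene Sf1, which cells in general use. The next gene, Rps6ka4, had 614 counts. The 0 for Pygm is therefore not read as a level.

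Within the muscle signal, as counts per 1000 member counts, a few members did not overlap between the groups. Xirp2 took 21.6, 20.2 and 23.1 of 1000 member reads in irradiated replicates 1, 2 and 3 and 13.1, 16.5 and 14.3 in untreated replicates 1, 2 and 3. Tnni2 took 19.5, 21.5 and 22.5 in the irradiated libraries and 24.6, 27.3 and 26.2 in the untreated ones. Tnnt3 took 61.3, 60.1 and 59.5 in the irradiated libraries and 64.5, 68.1 and 66.6 in the untreated ones, and Atp2a1 and Mybpc2 also did not overlap. Of the 28 tested members, 3 were lower and 2 higher without overlap, where the same division of all genes by the member sum gave 0.0854% lower and 31.8% higher. The member sum was lower on average in the irradiated group, so this division raises other genes there, while the members make up the sum. These shares over all genes are therefore not a measure for the counts of members. Eno3 stood out in irradiated replicate 3 alone, at 48.8, against 24.8 and 28.3 in irradiated replicates 1 and 2.

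**Figure D4:**
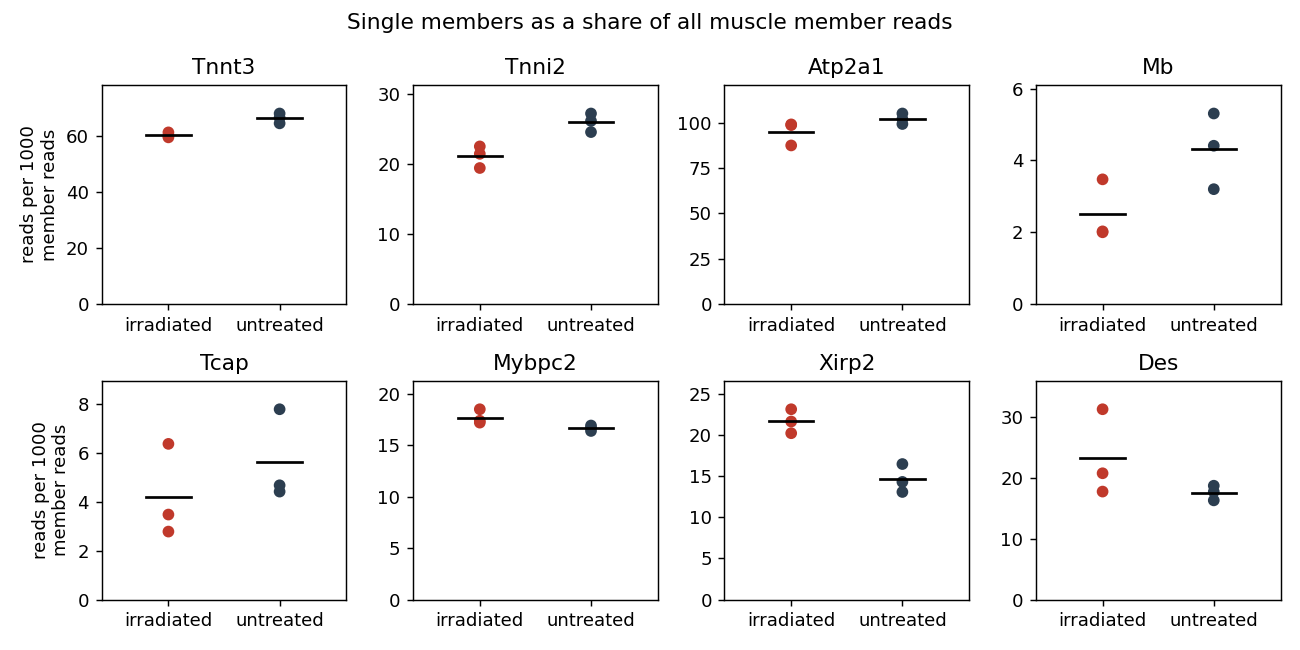
Counts of selected members per 1000 member counts (y axis) in each library, with irradiated libraries left of untreated ones. All 3 points of Xirp2 lie higher and all 3 of Tnni2 lower in irradiated libraries, and horizontal lines are group means.

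Other muscle genes, taken from lists of sarcomere, coupling and energy genes, were also mostly lowest in irradiated replicate 3. Of 69 genes, 40 were tested, and 37 had a negative log2 fold change, against 50.9% of all genes. Irradiated replicate 3 was the lowest library for 33, against 16.7% of all genes. They summed to 361, 444 and 242 CPM in irradiated replicates 1, 2 and 3 and to 413, 499 and 461 CPM in untreated replicates 1, 2 and 3, with a median log2 fold change of -0.52. EdgeR called 0 of the 40, against 1.00% of all genes. At an unadjusted edgeR p under 0.05 there were 7 of the 40, all lower, against 7.46% of all genes lower and 15.0% in either direction. For 8 of the 40 every irradiated library lay below every untreated one, and for 0 above, against 10.6% of all genes each way. DESeq2 called 1, Cox6a2, where it called 191 of all 12885 genes. The tropomyosins Tpm1 and Tpm2, which cover the thin filament, had log2 fold changes of -0.41 and -0.63, the coupling protein genes Trdn and Srl -0.58 and -0.60, and the glycolysis genes Pfkm and Ldha -0.23 and -0.10. Klhl41, a kelch protein of the sarcomere singled out after its values were seen, had the lowest edgeR adjusted p of these, 0.0756, with a log2 fold change of -1.13. Of 12 regulators of muscle formation and upkeep 3 had enough counts to test, with log2 fold changes of 0.07 for Mef2c, -0.54 for Fbxo32 and -0.90 for Mstn. Mstn, or myostatin, had 1.93, 2.64 and 0.345 CPM in the irradiated libraries and 2.79, 3.14 and 3.06 CPM in the untreated ones, while Myog and Pax7 had 1 count each in total.

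Forms of the same enzymes and filaments that most cells use did not show this order. Irradiated replicate 3 was the lowest library for 2 of 17 tested, against 16.7% of all genes. The broadly expressed relatives summed to 1766, 1386 and 1690 CPM in irradiated replicates 1, 2 and 3 and to 1599, 1561 and 1727 CPM in untreated replicates 1, 2 and 3, with a median log2 fold change of 0.09. Eno1, the general enolase, had 82.5, 71.9 and 76.4 CPM in the irradiated libraries and 68.5, 67.0 and 70.2 CPM in the untreated ones. Atp2a2, the general calcium pump, had 180.1, 141 and 169 CPM in the irradiated libraries and 153, 151 and 149 CPM in the untreated ones. Irradiated replicate 3 was not low for either gene. Eno1 and Atp2a2 are relatives of the members Eno3 and Atp2a1 and not the most abundant of the list. Those were the actins Actb and Actg1, with log2 fold changes of 0.20 and -0.79 (edgeR adjusted p = 0.496 and 0.478). Actg1 had 287, 108 and 258 CPM in the irradiated libraries and 368, 349 and 411 CPM in the untreated ones, without overlap. Of the 17, 2 were lower and 3 higher without overlap, against 10.6% of all genes each way. Of the other tissues that could lie beside the gland, fat genes summed to 439.5, 565 and 331 CPM in the irradiated libraries and 513, 417 and 817 CPM in the untreated ones. Smooth muscle and myoepithelial genes, a list that shares Des with the members, summed to 94.6, 136 and 109.5 CPM in the irradiated libraries and 120.2, 139.7 and 149.6 CPM in the untreated ones. Schwann cell genes summed to 117, 115 and 94.8 CPM in the irradiated libraries and 109, 149 and 128 CPM in the untreated ones. Fat and Schwann cell genes were lowest in irradiated replicate 3, as the muscle genes were, by a smaller factor. Red blood cell genes summed to 60.8, 26.4 and 50.2 CPM in the irradiated libraries and 51.0, 79.6 and 87.9 CPM in the untreated ones. Their median log2 fold change was -0.64 over 4 tested, and the lowest library was irradiated replicate 2. EdgeR and DESeq2 called 0, and 1 had an unadjusted edgeR p under 0.05, against 15.0% of all genes. The globin genes Hba-a1 and Hbb-bs had log2 fold changes of -0.74 and -0.62. Parotid acinar genes summed to 435700, 383100 and 488700 CPM in the irradiated libraries and 430000, 517400 and 459700 CPM in the untreated ones, and were not low in irradiated replicate 3. Most of that sum was Bpifa2, a secreted protein, at 299600, 256400 and 321500 CPM in the irradiated libraries and 281400, 344200 and 300100 CPM in the untreated ones. Over the 9 acinar genes the median log2 fold change was -0.26. For 5 of them (Aqp5, Car6, Smr3a, Bhlha15 and Dnase1) every irradiated library lay below every untreated one, at an unadjusted edgeR p under 0.05. Over all genes, 10.6% lay lower without overlap and 7.46% were lower at that p. One of the 9 acinar genes, Car6, a secreted carbonic anhydrase, was called lower by edgeR, with a log2 fold change of -0.79, where 0.349% of all genes were. Lymphocyte genes summed to 73.3, 82.11 and 82.12 CPM in the irradiated libraries and 37.3, 7.85 and 32.1 CPM in the untreated ones. Of 11 tested, 10 lay higher in irradiated libraries without overlap, against 10.6% of all genes. EdgeR called 1 higher, where 0.652% of all genes were. It was Cd5, a surface protein of T cells, with a log2 fold change of 2.95. The 9 heart genes summed to 2.99, 2.28 and 0.603 CPM in the irradiated libraries and 1.07, 3.32 and 1.86 CPM in the untreated ones. Of these Nppa, Myl7, Mybpc3 and Myl3 had 0 counts in every library, and Tnni3, cardiac troponin I, had most of the counts, with 41, 14 and 6 in the irradiated libraries and 11, 28 and 24 in the untreated ones. Tnnt2, cardiac troponin T, had 1 to 6 counts in each library. The part of these cell types in the muscle result was not tested.

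**Figure D5:**
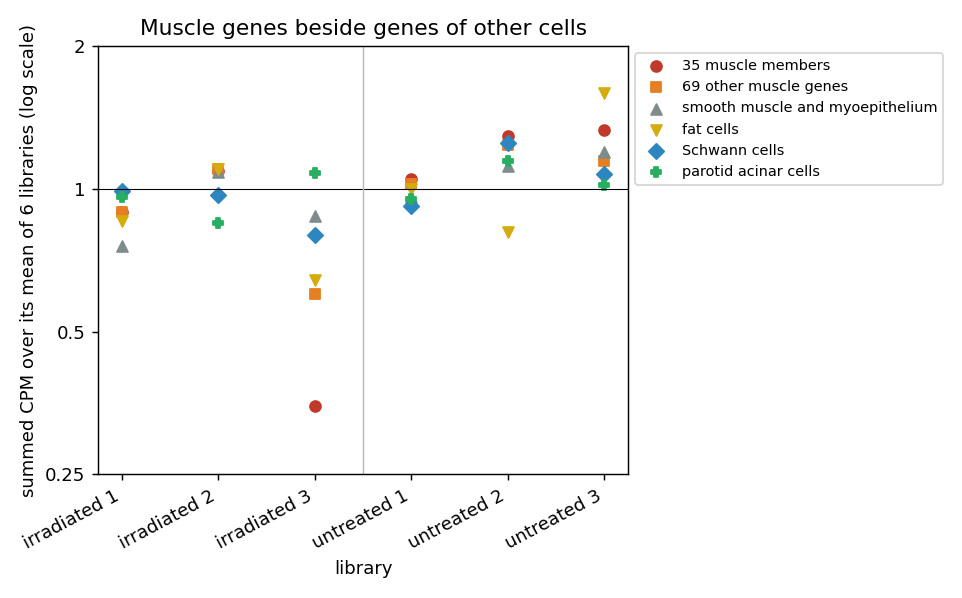
Summed CPM of 6 gene lists in each library, divided by the list's mean of 6 libraries (y axis, log scale). The muscle lists are the lowest points in irradiated replicate 3, where parotid acinar genes are above their mean.

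The genes outside the lists whose log2 CPM followed the member sum most closely over the 6 libraries were Cpxm1 (r = 0.996), 9930104L06Rik (0.995), Amz2 (0.992), Rpl3l (0.991), Fsd2 (0.990), Rtn2 (0.987), Bcl9l (0.985), Setd6 (0.983), Gm11263 (0.980) and Klhl31 (0.979). These Pearson correlations are a description, since every gene shares the depth and scaling of its libraries and the sum is far lowest in irradiated replicate 3. Without that library they ran from 0.771 for Klhl31 to 0.955 for Amz2. The members' own correlations with their sum had a median of 0.979, and of 0.931 without it, and all 12303 genes with a mean CPM of at least 1 had a median of -0.01. Each member is itself part of the sum, so the members' correlations are not on a par with those of other genes.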

How the data were processed

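RNA of 6 parotid samples was sequenced, 3 irradiated and 3 untreated, grouped by the treatment label. The deposited values are raw counts per Ensembl mouse gene. Per the submitters' processing notes, bcl2fastq, HISAT2 and HTSeq were used with the build mm10. Tool versions, strand setting and gene annotation are not given in the sources used here, so overlapping and antisense genes and close relatives are uncertain. Reads assigned to no gene (32.45% to 40.72%) were left out. Symbols came from a GRCm38 gene annotation, which matched 52489 of 52636 rows and all 35 members.

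Counts were fitted over all genes with edgeR 4.0.16 in R 4.3.3 (TMM, filterByExpr with minimum count 10, robust quasi-likelihood), with Benjamini-Hochberg adjustment and a threshold of 0.05. The filter kept 12885 genes and 28 members. CPM are counts scaled to the library size times its TMM factor, and the SE is the fold change over the square root of its F. The alternatives were DESeq2 1.42.0, other scalings and filters, no robust shrinkage, a replicate block and each library left out. Library totals ranged from 7108359 to 15036193, and 3 counts are worth 0.199 to 0.360 CPM. The procedure was also run on simulated counts drawn for each gene separately. Members that vary together by library, as here, were not simulated, so that run does not bear on them.

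Values are given per library for the 3 members with the most CPM of each role, the 4 myosin heavy chains, slow and called members. Other lists give up to 4 called genes, or their 2 most abundant. Some genes, among them Eno1 and Atp2a2, are named outside this rule. Members and lists were chosen with earlier results of these data known. Promoters are from RefSeq (GRCm38.p6).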

Additional observations from a re-analysis of the deposited data

How the results depend on the processing

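Of 28 members, 26 to 28 had a negative fold change in each setting with the filter on low counts, and the call on Tcap depended on the setting. EdgeR called 1 member, with 4 at an unadjusted p under 0.05, all lower (14.3%, against 7.46% of all genes lower and 15.0% in either direction). With library totals alone it called 0, with 2 unadjusted (7.14%, against 1.88% lower and 16.3% in either direction). With no robust shrinkage it called 0, with 11 unadjusted (39.3%, against 7.44% lower and 15.1% in either direction). With no filter on low counts it called 5 (Mybpc1, Tcap, Myoz1, Eno3 and Mb), and leaving out 1 library 0 to 3. DESeq2 called 1. Over all genes the count was 129, against 281 with library totals alone (259 higher and 22 lower, in place of 84 and 45), 518 with no filter, 26 with no robust shrinkage, 191 with DESeq2 and 45 to 155 leaving out 1 library. Library totals alone moved the median of all genes to 0.14 and that of the members to -0.48. The members' median ran from -0.98 without irradiated replicate 2 to -0.32 without irradiated replicate 3. Signs reversed for Xirp2 (0.0377 with library totals alone, and -0.376 to 0.187 leaving out 1 library, the highest without irradiated replicate 3) and Cacna1s (-0.61 to 0.201 leaving out 1 library, the highest without irradiated replicate 3, and 0.028 without untreated replicate 2). The cause was not tested. Myh4 shares without each library ran from 86.3% to 88.5% in irradiated and 85.5% to 87.2% in untreated glands. With the replicate number as a block, edgeR called 0 members and 53 genes, and 6 members were lower at an unadjusted p under 0.05. That is 21.4%, against 6.27% of all genes lower and 12.8% in either direction. Whether the replicate numbers pair the samples is not known. Deviations from the group mean correlated at 0.0574, -0.144 and -0.102 in same-numbered libraries and at -0.0929 to 0.184 in differently numbered ones. With 3 libraries per group a pairing could go unseen. Low counts limit the slow members.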
